A study of Mus musculus with 6 samples.

Results

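Vesicle exocytosis is the last step of regulated secretion, in which a hormone granule, a zymogen granule or a synaptic vesicle fuses with the plasma membrane. Gene families that hold its core machinery were followed in embryonic mouse pancreas labelled as Prox1 mutant or as wildtype. Some of their genes act in other steps of vesicle traffic. The genes were chosen by symbol alone and comprise the synaptotagmins, the synaptotagmin-like proteins, the syntaxins and syntaxin-binding proteins, the SNAP and VAMP families, the Rab3 and Rab27 GTPases, the RIM and Unc13 priming factors, the complexins and the SV2 proteins. They numbered 75 of the 23337 genes in the count files, and 69 of them had enough reads to be tested.

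RNA was sequenced from whole pancreas at E13.5, in NMRI mice. The 3 mutant pools came from embryos labelled Prox1-nullyzygous, written as Prox1 GFPCre/D, and the 3 control pools from wildtype embryos; Prox1 encodes a homeobox transcription factor. What the D allele carries is not stated in the labels. The pools are called mutant by their label alone, because Prox1 reads over the whole gene overlapped between the groups (1330, 1774 and 1602 reads in mutant pools, against 1764, 1687 and 1824 reads in control pools). Each pool combined 5 to 6 pancreata, so values describe pools of whole organs and not single embryos, and the p-values measure the spread between pools. In such bulk tissue, fewer cells of a type and less RNA per cell cannot be told apart.

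Fusion is driven by SNARE proteins. A VAMP on the vesicle zips together with a syntaxin and a SNAP protein on the target membrane, and Sec1/Munc18 proteins such as Stxbp2 hold the syntaxin and guide the assembly. Rab3 and Rab27 GTPases and their effectors bring granules to the membrane, RIM and Unc13 proteins prime them, complexins bind the assembled SNAREs, and synaptotagmins with calcium-binding C2 domains trigger fusion when calcium rises. Neurons and pancreatic endocrine cells share much of this set (Snap25, Stx1a, Vamp2, Cplx2, Syt7), whereas acinar cells release zymogen granules with epithelial members such as Stx2, Stx3, Vamp8, Snap23, Stxbp2 and Rab3d.

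Promoter sequences are shown for genes whose transcripts were lower in mutant pools. Cplx2 and Rab3d are members whose lower call held under every alternative setting described further on. Unc13a is a member chosen because its window holds 1 of the searched words, TTCAGCACC. Baiap3, Pclo and Cadps are priming and active zone genes from outside the set that are described further on. Of the 12 members called lower, 7 had a window. None was available for Syt7, Syt13, Syt17, Rims2 and Rims4, so the windows shown do not represent all lower members. Each is the RefSeq window of 300 bases from 250 before the start to 50 after it, on GRCm38.p6 and in the direction of transcription. Capitals mark exact matches, on either strand, to the searched words CAGATG (an E-box bound by neurogenin and NeuroD factors), CAGCTG (the palindromic E-box), TGACGTCA (the cAMP response element), TTCAGCACC and GGACAGCGC (from the left and right arms of the RE1 element) and GGGCGG (the GC box).
Cplx2 promoter, chr13:54302306-54302605, plus strand: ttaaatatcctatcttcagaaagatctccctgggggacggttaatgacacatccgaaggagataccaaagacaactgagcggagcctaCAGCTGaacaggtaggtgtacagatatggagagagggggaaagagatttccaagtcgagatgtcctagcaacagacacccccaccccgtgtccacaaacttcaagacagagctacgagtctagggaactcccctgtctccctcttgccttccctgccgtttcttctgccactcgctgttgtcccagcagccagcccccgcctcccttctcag
Rab3d promoter, chr9:21918134-21918433, minus strand: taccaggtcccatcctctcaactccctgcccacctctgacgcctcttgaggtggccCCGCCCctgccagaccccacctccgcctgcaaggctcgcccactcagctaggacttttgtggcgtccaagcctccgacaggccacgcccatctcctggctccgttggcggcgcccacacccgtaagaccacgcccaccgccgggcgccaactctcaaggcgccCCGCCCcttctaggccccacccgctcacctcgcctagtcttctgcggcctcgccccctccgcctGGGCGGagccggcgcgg
Unc13a promoter, chr8:71671708-71672007, minus strand: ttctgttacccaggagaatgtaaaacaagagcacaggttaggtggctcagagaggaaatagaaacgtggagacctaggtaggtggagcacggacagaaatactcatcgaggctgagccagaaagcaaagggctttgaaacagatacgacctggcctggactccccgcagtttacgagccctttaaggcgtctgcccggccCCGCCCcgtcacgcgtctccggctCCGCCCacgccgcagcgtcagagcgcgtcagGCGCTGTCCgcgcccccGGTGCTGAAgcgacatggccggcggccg
Baiap3 promoter, chr17:25256315-25256614, minus strand: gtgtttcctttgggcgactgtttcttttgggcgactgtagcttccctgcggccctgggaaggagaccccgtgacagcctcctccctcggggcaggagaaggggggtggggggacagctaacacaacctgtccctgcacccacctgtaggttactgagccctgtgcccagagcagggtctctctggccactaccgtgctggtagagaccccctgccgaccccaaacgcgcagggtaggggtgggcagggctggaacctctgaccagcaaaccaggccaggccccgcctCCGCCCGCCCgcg
Pclo promoter, chr5:14514668-14514967, plus strand: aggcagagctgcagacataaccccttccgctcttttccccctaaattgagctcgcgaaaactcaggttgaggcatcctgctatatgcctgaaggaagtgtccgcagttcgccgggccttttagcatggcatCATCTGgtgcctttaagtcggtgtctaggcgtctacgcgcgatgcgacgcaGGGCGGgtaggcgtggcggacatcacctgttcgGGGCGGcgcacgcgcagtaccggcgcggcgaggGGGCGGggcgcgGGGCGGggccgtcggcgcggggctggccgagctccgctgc
Cadps promoter, chr14:12823030-12823329, minus strand: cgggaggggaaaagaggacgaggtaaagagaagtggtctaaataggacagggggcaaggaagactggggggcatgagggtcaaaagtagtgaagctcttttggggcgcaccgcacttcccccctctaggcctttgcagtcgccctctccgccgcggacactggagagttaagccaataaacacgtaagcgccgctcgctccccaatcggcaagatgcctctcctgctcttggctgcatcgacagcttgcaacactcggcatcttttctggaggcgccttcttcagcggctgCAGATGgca

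The Cplx2 window belongs to a RefSeq start that lies upstream of the GENCODE span of the gene, which begins at 54371349; which start these embryos use was not analysed here. The searched words were distributed unevenly over these windows. Cplx2 held 1 CAGCTG, Rab3d 3 GC boxes, and Pclo 1 CAGATG with 4 GC boxes. Cadps held 1 CAGATG, and Baiap3 2 GC boxes that overlap by 2 letters. Unc13a carried both RE1 words, each once and on the opposite strand to transcription, beside 2 GC boxes. Across all 32851 mouse promoter windows in the table, TTCAGCACC was present in 0.371% and GGACAGCGC in 0.405%. Each was in 1.37% of the member windows, which is 1 window, that of Unc13a. Because this window was chosen for holding TTCAGCACC, no rarity of the match can be read from these shares. Of the 75 members, 57 matched the table, with 73 windows. CAGATG was present in 6.85% of the 73 member windows and 17.2% of all windows, CAGCTG in 31.5% and 16.3%, TGACGTCA in 0% and 1.79%, and GGGCGG in 63% and 35.7%. The member windows also had a higher mean GC content, 60.1% against 53.8% over all windows; its part in these shares was not tested. A match describes letters and is not evidence of binding.

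Of the 69 tested members, 17 were called changed (24.6%) by the edgeR quasi-likelihood test at an adjusted p under 0.05; over all 14687 tested genes the share was 7.95%. In mutant pools 12 members were lower, where 4.28% of all genes were, and 5 were higher, where 3.67% of all genes were. The members lower in mutants were Syt7, Syt13, Syt17, Sytl5, Stx16, Stxbp2, Rab3d, Rims2, Rims4, Unc13a, Cplx1 and Cplx2. Those higher in mutants were Syt2, Sytl2, Stx2, Stx7 and Rims1. Without any 1 of the mutant pools 6 members were called lower and 1 higher; these counts were 7 and 2 without control pool 1, 11 and 6 without control pool 2, and 7 and 1 without control pool 3. The levels of each of the 17 did not overlap between the groups. Without overlap between the 3 mutant and the 3 control pools, 20 members were lower and 11 were higher in mutants; over all tested genes the share without overlap was 26.4%, made up of 13.4% lower and 13.1% higher. The median log2 fold change of the members was -0.06, against 0 over all genes, and the members ranged from a log2 fold change of -2.72 for Cplx1 to 1.17 for Syt12.

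**Figure D1:**
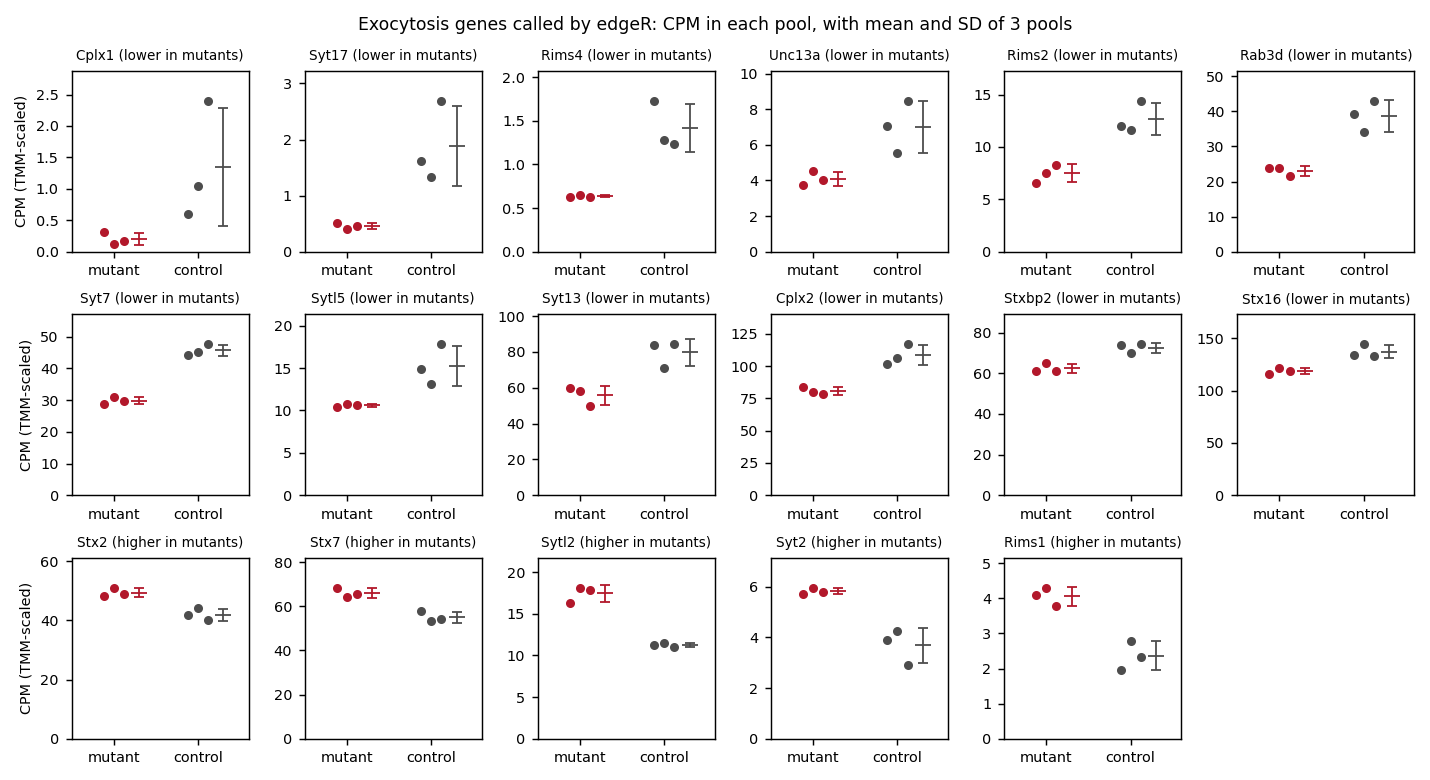
Level of each of the 17 called members in CPM, read counts scaled by library size and TMM factor, on axes that start at 0. Points are the 3 mutant pools (left) and the 3 control pools (right) in order of pool number, and the cross with bars is the mean and SD of 3 pools. In every panel the 3 mutant pools lie on one side of the 3 control pools, for example 28.7 to 30.9 CPM against 44.3 to 47.6 CPM for Syt7.

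The calls differed in how often they held when the settings changed. Cplx2, Rab3d, Syt7, Syt13, Syt17 and Sytl2 were called under all 16 alternative settings, which changed the scaling, the filter or the test or left out pools. Rims2 was called under 15 of the 16 and missed the threshold only without mutant pool 1 and control pool 3, at an adjusted p of 0.0519. The other 10 calls (Cplx1, Rims1, Rims4, Stx16, Stx2, Stx7, Stxbp2, Syt2, Sytl5 and Unc13a) each ended when any single mutant pool was left out. These fits have fewer pools, and the same 10 were lost whichever mutant pool was missing. With all pools their edgeR adjusted p ran from 0.0207 for Stx7 to 0.0475 for Syt2. Each of the 10 kept its sign in every setting that tested it.

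Among the 15 tested synaptotagmins, 3 were lower and 1 was higher in mutants (26.7%, against 7.95% of all tested genes). Their median log2 fold change was -0.32. Syt7, a high-affinity calcium sensor of insulin and glucagon granule release (chromosome 19, 10389090 to 10453180, plus strand, GRCm38), had 28.7, 30.9 and 29.8 CPM in mutant pools 1 to 3, against 44.3, 45.3 and 47.6 CPM in control pools 1 to 3. These levels averaged 29.8 ± 1.1 CPM in mutants and 45.7 ± 1.7 CPM in controls (SD, n = 3 each). The 2 groups were far apart relative to the spread within each, and the log2 fold change was -0.62 (SE 0.06, edgeR adjusted p 0.000646), the smallest adjusted p of the members. Of the exon bases of Syt7, 5.13% are shared with the antisense gene Gm26859, whose reads cannot be told apart without a stated strand setting.

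Syt13, an atypical synaptotagmin without the usual calcium-binding residues (chromosome 2, 92915098 to 92956058, plus strand), had 59.7, 58.1 and 49.6 CPM in mutant pools, against 84.1, 70.8 and 84.2 CPM in control pools. All mutant pools lay below the lowest control pool, and the log2 fold change was -0.52 (SE 0.089, edgeR adjusted p 0.00929). Per kilobase of exon, Syt13 had the highest mean level of the synaptotagmins over the 6 pools, 18 RPKM (CPM per kilobase). This order did not hold in both groups. Syt13 averaged 14.8 RPKM in mutants and 21.2 RPKM in controls, against 19.6 and 15.8 RPKM for Syt6. Syt17, a relative that is also known as B/K (chromosome 7, 118380717 to 118448222, minus strand), had 0.503, 0.412 and 0.458 CPM in mutant pools, against 1.61, 1.34 and 2.69 CPM in control pools. Its level was low everywhere, at 7 to 8 reads in each mutant pool and 22 to 46 reads in each control pool, and its log2 fold change was -2.03 (SE 0.36, edgeR adjusted p 0.01).

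Syt2, a fast calcium sensor of hindbrain and neuromuscular synapses, went the other way. It had 5.72, 5.95 and 5.78 CPM in mutant pools, against 3.88, 4.26 and 2.92 CPM in control pools, a log2 fold change of 0.66 (SE 0.17, edgeR adjusted p 0.0475). Syt12 had the highest log2 fold change of the family, 1.17 (SE 0.4, edgeR adjusted p 0.126), but rested on 10 to 17 reads per mutant pool and 4 to 9 reads per control pool and was not called. Syt11, an atypical member of vesicle trafficking in neurons, had 21.1, 18.4 and 15.7 CPM in mutant pools, against 21.6, 24.4 and 27.2 CPM in control pools. Its groups did not overlap, yet the log2 fold change of -0.41 (SE 0.12) had an adjusted p of 0.0866 with edgeR and of 0.041 with DESeq2.

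The classical sensor of fast synaptic release, Syt1, had 5.16, 3 and 2.29 CPM in mutant pools, against 3.22, 4.14 and 5.61 CPM in control pools. These pools overlapped (log2 fold change -0.32, SE 0.31, edgeR adjusted p 0.64). Syt4 overlapped as well, with 3.52, 3.36 and 2.8 CPM in mutant pools and 2.03, 1.52 and 3.92 CPM in control pools (log2 fold change 0.37, SE 0.32, edgeR adjusted p 0.591). Syt6, which is known from the acrosome reaction of sperm, had a mean over the 6 pools close to that of Syt13 (17.7 RPKM). It varied most in absolute level between pools of a group. It had 76.7, 126.6 and 138.5 CPM in mutant pools, against 87, 112.3 and 77.7 CPM in control pools, and was not called (log2 fold change 0.31, SE 0.21, edgeR adjusted p 0.466). Syt8 and Syt10 did not pass the count filter: Syt8 had 2, 2 and 7 reads in mutant pools against 3, 9 and 5 in control pools, and Syt10 had 2, 0 and 0 reads against 2, 0 and 1.

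The synaptotagmin-like proteins tether Rab27-bearing granules to the plasma membrane, and here members of the family moved in opposite directions. Sytl2 (chromosome 7, 90302252 to 90410719, plus strand) had 16.3, 18.1 and 17.9 CPM in mutant pools, against 11.3, 11.5 and 11 CPM in control pools. The control pools were almost identical and every mutant pool lay above them, with a log2 fold change of 0.63 (SE 0.088, edgeR adjusted p 0.00346). Sytl5 (chromosome X, 9885622 to 9994543, plus strand), the most abundant of the family per kilobase, had 10.4, 10.8 and 10.6 CPM in mutant pools, against 14.9, 13.1 and 17.8 CPM in control pools. Its log2 fold change was -0.53 (SE 0.12, edgeR adjusted p 0.0323). Sytl4, or granuphilin, which docks insulin granules and is X-linked in mice, had 15.6, 13.4 and 12.8 CPM in mutant pools, against 14.3, 13.3 and 23.6 CPM in control pools. Control pool 3 alone stood apart, and Sytl4 was not called (log2 fold change -0.3, SE 0.21, edgeR adjusted p 0.48). Sytl3 had 1 to 3 reads per mutant pool and 3 to 10 reads per control pool and was not tested.

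Of the 6 Rab3 and Rab27 GTPases, all of which were tested, 1 was lower in mutants (16.7%, where 4.28% of all tested genes were lower). Rab3d, which sits on zymogen granules of acinar cells and on other secretory granules (chromosome 9, 21907491 to 21918192, minus strand), had 23.8, 23.8 and 21.5 CPM in mutant pools, against 39.2, 34 and 43 CPM in control pools. The highest mutant pool was well below the lowest control pool, and the log2 fold change was -0.75 (SE 0.094, edgeR adjusted p 0.00208). Rab3d made up 32.6% to 34.4% of the summed RPKM of the 6 GTPases in mutant pools and 42.2% to 43.5% in control pools. The synaptic form Rab3a did not overlap between the groups (10.4 to 11.1 CPM in mutant pools, 11.8 to 12.8 CPM in control pools) but was not called, with a log2 fold change of -0.18 (SE 0.093, edgeR adjusted p 0.31). Rab27a, the GTPase of dense granules and insulin granules, had a log2 fold change of -0.26 (SE 0.12, edgeR adjusted p 0.283) and its relative Rab27b one of 0.41 (SE 0.15, edgeR adjusted p 0.15). No GTPase was called higher by edgeR, DESeq2 or limma voom; 1 had an unadjusted p under 0.05 in that direction, which was Rab27b.

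The priming factors held the largest share of calls among families with more than 4 tested genes, with 3 lower and 1 higher in mutants of 8. This is 50%, against 7.95% of all tested genes. DESeq2 called 2 of the 8 lower and 0 higher. The calls of Rims1, Rims4 and Unc13a each ended when any single mutant pool was left out. Rims2, the RIM isoform known from endocrine cells (chromosome 15, 39198261 to 39684372, plus strand), had 6.6, 7.54 and 8.3 CPM in mutant pools, against 12, 11.6 and 14.4 CPM in control pools. Its log2 fold change was -0.76 (SE 0.13, edgeR adjusted p 0.00955). Unc13a, the Munc13 isoform that opens syntaxin for SNARE assembly in neurons and endocrine cells (chromosome 8, 71624417 to 71671757, minus strand), had 3.77, 4.54 and 4.01 CPM in mutant pools, against 7.04, 5.54 and 8.47 CPM in control pools. The groups did not overlap, and its log2 fold change was -0.77 (SE 0.18, edgeR adjusted p 0.0344). The antisense gene Colgalt1 covers 3.92% of the exon bases of Unc13a.

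Rims4, a short RIM protein without the Rab-binding part, had 0.629, 0.648 and 0.629 CPM in mutant pools, against 1.73, 1.28 and 1.23 CPM in control pools. This is 10 to 11 reads per mutant pool and 21 to 29 reads per control pool, with a log2 fold change of -1.14 (SE 0.28, edgeR adjusted p 0.0382). Rims1, a RIM of central synapses, was higher in mutants, with 4.09, 4.3 and 3.78 CPM in mutant pools against 1.97, 2.8 and 2.34 CPM in control pools. Its log2 fold change was 0.77 (SE 0.19, edgeR adjusted p 0.0393), so that Rims1 and Rims2 had differences of similar size and opposite sign. Per kilobase, Unc13b was the most abundant priming factor (2.86 RPKM) and was not called, with 62.3, 66.3 and 62.2 CPM in mutant pools and 67.6, 62.1 and 70.2 CPM in control pools.

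Both tested complexins were lower in mutants, where 4.28% of all tested genes were. Cplx2, the complexin of endocrine cells and of many synapses (chromosome 13, 54371349 to 54383917, plus strand), made up 95.5% to 99.5% of the summed complexin RPKM in every pool. It had 83.9, 79.7 and 78.7 CPM in mutant pools, against 101.9, 106.4 and 116.9 CPM in control pools, which averaged 80.7 ± 2.77 CPM in mutants and 108.4 ± 7.71 CPM in controls. The difference was small but well outside the spread, with a log2 fold change of -0.43 (SE 0.059, edgeR adjusted p 0.00346). Cplx1 had 5, 2 and 3 reads in mutant pools, against 10, 17 and 41 reads in control pools. Its log2 fold change of -2.72 (SE 0.65, edgeR adjusted p 0.0359) was the most negative of the members and rested on these few reads; without control pool 3 the call was lost. Cplx3 had 1 read in mutant pool 2 and 0 in each other pool, and Cplx4 had 2 reads in mutant pool 2 and 1 in control pool 3.

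**Figure D2:**
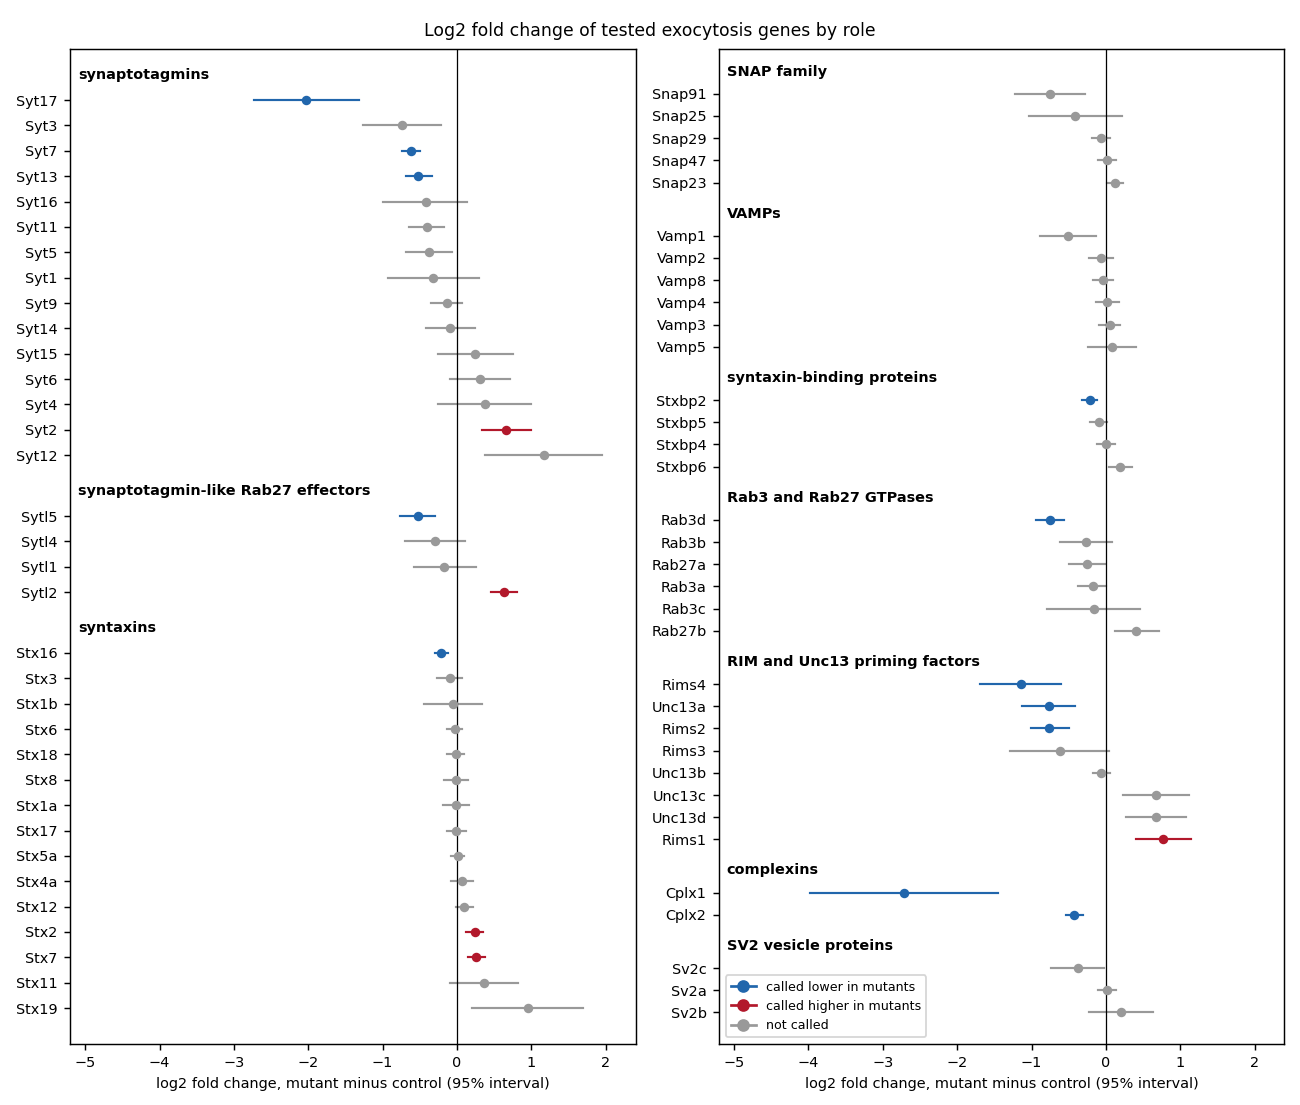
Log2 fold change, mutant minus control, of tested members with approximate normal 95% intervals, grouped by role. Blue marks members called lower in mutants, red members called higher and grey members not called. Calls come from the F test and not from these intervals. Of the 17 calls, 4 are synaptotagmins, 4 RIM and Unc13 factors and 2 complexins. The SNAP, VAMP and SV2 families have none among 5, 6 and 3 tested genes, where 7.95% of all tested genes were called.

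Among the SNAREs themselves, the called differences were small. Of 15 syntaxins, 1 was lower and 2 were higher in mutants (20%, against 7.95% of all tested genes). Stx16, a SNARE of the trans-Golgi network, had the highest mean of the syntaxins over the 6 pools (32.3 RPKM). In mutant pools it averaged 30 RPKM, against 30.5 RPKM for Stx12. Stx16 had 116.1, 121.6 and 119.1 CPM in mutant pools, against 134.4, 144.2 and 133.3 CPM in control pools (log2 fold change -0.21, SE 0.046, edgeR adjusted p 0.0274). Stx7, a late endosomal SNARE, had 68.3, 64 and 65.5 CPM in mutant pools, against 57.7, 53.1 and 54.2 CPM in control pools (log2 fold change 0.26, SE 0.054, edgeR adjusted p 0.0207). Stx2, an epithelial plasma membrane syntaxin also found on the apical side of acinar cells, had 48.2, 51 and 49 CPM in mutant pools, against 41.7, 44.1 and 40 CPM in control pools (log2 fold change 0.24, SE 0.058, edgeR adjusted p 0.0422). These 3 differences amount to 1.15-fold higher in controls for Stx16, 1.2-fold higher in mutants for Stx7 and 1.18-fold higher in mutants for Stx2. Stx1a, the syntaxin of neurons and endocrine granules, had 15, 17.4 and 16.8 CPM in mutant pools, against 16.1, 16.8 and 16.8 CPM in control pools. Its log2 fold change of -0.01 had an approximate normal 95% interval of -0.19 to 0.16. Stx19 had the highest log2 fold change of the syntaxins, 0.95 (SE 0.38, edgeR adjusted p 0.192), at 11 to 17 reads per mutant pool and 5 to 10 reads per control pool.

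No SNAP family gene of 5 tested and no VAMP of 6 tested was called by edgeR, DESeq2 or limma voom. Over all tested genes 7.95% were called with edgeR. With edgeR, 1 gene of each family had an unadjusted p under 0.05, Snap91 and Vamp1, both lower in mutants. Snap25, the plasma membrane SNARE of neurons and endocrine cells, was scarce at this stage (0.654 RPKM, against 28.1 RPKM for Snap47 and 15.1 RPKM for Snap23). It had 5.47, 3.12 and 2.86 CPM in mutant pools, against 4.78, 3.35 and 7.07 CPM in control pools, which overlapped (log2 fold change -0.42, SE 0.32, edgeR adjusted p 0.533). Snap23, its counterpart in epithelia, had 70.1, 65.6 and 67.7 CPM in mutant pools, against 60, 61.2 and 65.6 CPM in control pools (log2 fold change 0.12, SE 0.055, edgeR adjusted p 0.242). Snap91, an endocytic clathrin adaptor that shares only the name with the SNARE proteins, had 3.08, 4.18 and 2.69 CPM in mutant pools, against 4.6, 4.81 and 7.31 CPM in control pools (log2 fold change -0.75, SE 0.24, edgeR adjusted p 0.102).

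Among the VAMPs, Vamp3, Vamp8 and Vamp2 had the highest levels per kilobase, 38.7, 18.8 and 16.2 RPKM. Vamp2, the vesicle SNARE of synapses and hormone granules, had 63.5, 60.1 and 57.4 CPM in mutant pools, against 59.5, 71.8 and 58.5 CPM in control pools; the 95% interval of its log2 fold change was -0.23 to 0.09. Vamp8, the vesicle SNARE of zymogen granules, had 41.9, 45.7 and 41.1 CPM in mutant pools, against 42.6, 42 and 47.6 CPM in control pools, with an interval of -0.18 to 0.1. Vamp3, a general exocytic VAMP, had an interval of -0.09 to 0.19. Vamp1, a synaptic VAMP, had a log2 fold change of -0.51 (SE 0.19, edgeR adjusted p 0.163) and Vamp5 one of 0.08 (SE 0.16). Vamp7 was listed at 0 reads in all 6 pools, which at this depth allows up to 0.172 to 0.189 CPM per pool for counting error alone. Its symbol had no match in the annotation that gave the gene positions. Whether the 0 reads reflect its level or how reads were assigned was not tested, so they are not a measured absence.

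Stxbp2, the Sec1/Munc18 protein of epithelial and blood cells, was the only syntaxin-binding protein of 5 tested that was called (20%, against 7.95% of all tested genes). It had 61.2, 65 and 60.9 CPM in mutant pools, against 73.7, 69.7 and 74.2 CPM in control pools (log2 fold change -0.22, SE 0.052, edgeR adjusted p 0.0369). Stxbp6, or amisyn, did not overlap (35 to 36 CPM in mutant pools, 28.1 to 34.3 CPM in control pools) but had an adjusted p of 0.191. Sv2a, which accounts for 93% to 94.1% of the summed SV2 RPKM and is a membrane protein of synaptic and endocrine vesicles, had 31.4, 33.8 and 34.7 CPM in mutant pools, against 32.3, 33 and 33 CPM in control pools. No SV2 gene of 3 tested was called by edgeR, DESeq2 or limma voom, where 7.95% of all tested genes were called with edgeR. Among the SV2 genes 0 had an unadjusted p under 0.05 with edgeR. Their lowest and highest log2 fold changes were -0.38 for Sv2c and 0.2 for Sv2b.

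**Figure D3:**
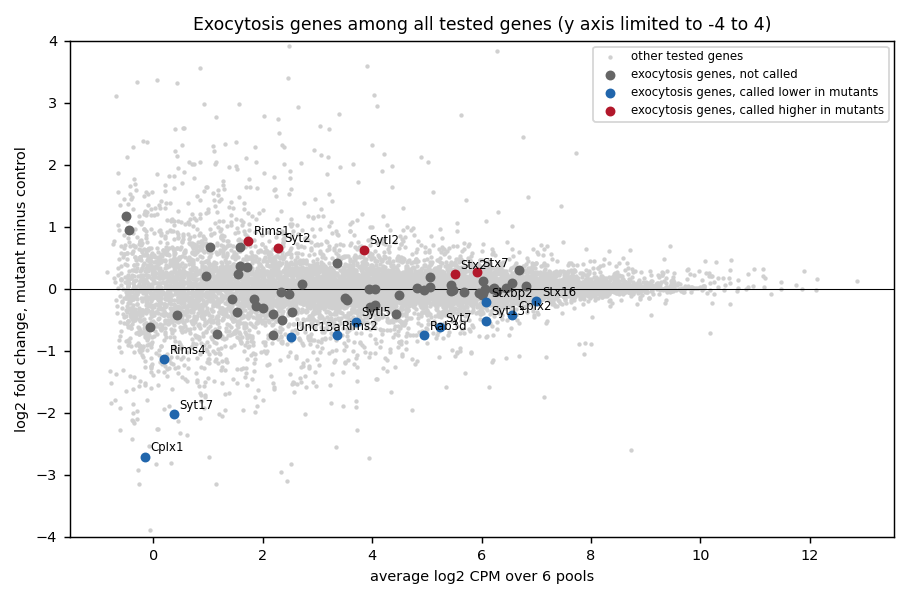
Log2 fold change, mutant minus control, against the average level on a log2 CPM scale for all 14687 tested genes (small grey points) with the members on top, in blue where called lower, red where called higher and dark grey otherwise. The y axis ends at -4 and 4, with 10 genes beyond it, and called members occur over the whole range of levels.

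The members were also sorted by where the proteins are best known to act. Of the 34 tested neuronal and neuroendocrine members, 7 were lower (Syt7, Syt13, Rims2, Rims4, Unc13a, Cplx1, Cplx2) and 2 higher (Syt2, Rims1), and 28 had a negative log2 fold change (82.4%, against 49.8% over all genes). Their median log2 fold change was -0.29, and their summed level was 592.2, 587.2 and 562.4 CPM in mutant pools, against 664.7, 667.8 and 731.4 CPM in control pools. The 12 epithelial and zymogen granule members had 2 calls in each direction (Rab3d and Stxbp2 lower, Stx2 and Sytl2 higher), a median of 0.05 and summed levels of 446.5 to 469.1 CPM in mutant pools and 434.3 to 481.3 CPM in control pools. The 11 tested Golgi, endoplasmic reticulum and endosome SNAREs had 1 call in each direction (Stx16 lower, Stx7 higher) and a median of -0.01. Syt17 and Sytl5, both lower in mutants, belong to none of the 3 groups. The endocytic adaptor Snap91 was counted among the neuronal and neuroendocrine members. The share called in either direction was 26.5% of the neuronal and neuroendocrine members and 33.3% of the epithelial and zymogen granule members. It was 18.2% of the Golgi, endoplasmic reticulum and endosome SNAREs. Over all tested genes it was 7.95%, made up of 4.28% lower and 3.67% higher. The difference between these groups of members was not tested. Control pool 3 was the highest control pool for 23 of the 34 neuronal and neuroendocrine members, where it was so for 35.3% of all tested genes; without it, or without any 1 of the mutant pools, 4 of the 34 were called lower and 0 higher, and without control pool 1 these counts were 5 and 0.

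Called members occurred at all levels. They were 5 of 25 between 1 and 10 CPM, where 9.57% of all genes were called, 10 of 37 between 10 and 100 CPM (7.94% of all genes), 1 of 4 below 1 CPM (6.33%) and 1 of 3 at 100 CPM or more (6.3%).

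Beyond the 75 members, a list of 81 further genes of vesicle fusion and exocytosis was examined, of which 75 were tested. In mutants 9 were lower and 2 were higher (14.7%, against 7.95% of all tested genes). The lower ones lay mostly among the priming, docking and active zone genes. There 7 of 18 were lower (38.9%), where 4.28% of all tested genes were. None of the 18 was called higher by edgeR, DESeq2 or limma voom. In that direction 1 had an unadjusted p under 0.05 with edgeR. The median log2 fold change of the 18 was -0.35. Baiap3, a Munc13 relative of dense-core vesicle trafficking, had 30.5, 32.8 and 29.2 CPM in mutant pools, against 62.3, 59.4 and 67.3 CPM in control pools. Its log2 fold change was -1.03 (SE 0.069, edgeR adjusted p 0.000114). Pclo, or piccolo, the large scaffold of the active zone that is also present in beta cells, had 33, 32.8 and 33.1 CPM in mutant pools, against 63.3, 59 and 70.2 CPM in control pools (log2 fold change -0.96, SE 0.071, edgeR adjusted p 0.000175). Cadps, the dense-core vesicle priming factor CAPS, had 12.8, 11.6 and 10.9 CPM in mutant pools, against 25.8, 23.1 and 27.5 CPM in control pools (log2 fold change -1.12, SE 0.098, edgeR adjusted p 0.000407). No member averaging more than 10 CPM had a log2 fold change as low as any of these 3. Without mutant pool 1, mutant pool 3 or control pool 1, 5 of the 75 further genes were called lower.

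Rimbp2, which links RIM proteins to calcium channels, had 12.3, 12.6 and 11.3 CPM in mutant pools, against 23.5, 18.1 and 27.6 CPM in control pools (log2 fold change -0.93, SE 0.15, edgeR adjusted p 0.00587). Also lower in this list were the scaffold Bsn (log2 fold change -0.56), the Rab3 and Rab27 effector Rph3al (-0.53) and the C2 domain protein Doc2a (-1.04). Outside the priming genes, the vesicle membrane protein Syp, or synaptophysin, had 6.73, 6.6 and 5.66 CPM in mutant pools, against 10.7, 11.6 and 16.1 CPM in control pools (log2 fold change -1.01, SE 0.17, edgeR adjusted p 0.00804). Stxbp5l, a tomosyn, which competes for SNARE binding, was lower with a log2 fold change of -0.64 (SE 0.15, edgeR adjusted p 0.0364). The 2 genes that were higher were Exph5, a Rab27 effector, with 25.5, 27.1 and 27.3 CPM in mutant pools against 15.2, 15.2 and 16.9 CPM in control pools (log2 fold change 0.76, SE 0.078, edgeR adjusted p 0.00081), and Scamp5 (log2 fold change 0.36, SE 0.073, edgeR adjusted p 0.0191). Cadps, Pclo, Baiap3, Rimbp2, Syp and Exph5 were called under all 16 alternatives.

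The general machinery around the SNAREs had no call in any of the 3 tools: 0 of the 4 SNARE disassembly genes, 0 of the 10 exocyst genes and 0 of the 12 other SNAREs. With edgeR, the unadjusted p was under 0.05 for 0, 1 and 1 of them. Over all tested genes 7.95% were called with edgeR, so 0 calls in lists this short do not set these genes apart. The exocyst, which tethers post-Golgi vesicles to the plasma membrane, summed to 594.8 to 609.6 CPM in mutant pools and 588 to 606.4 CPM in control pools.

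**Figure D4:**
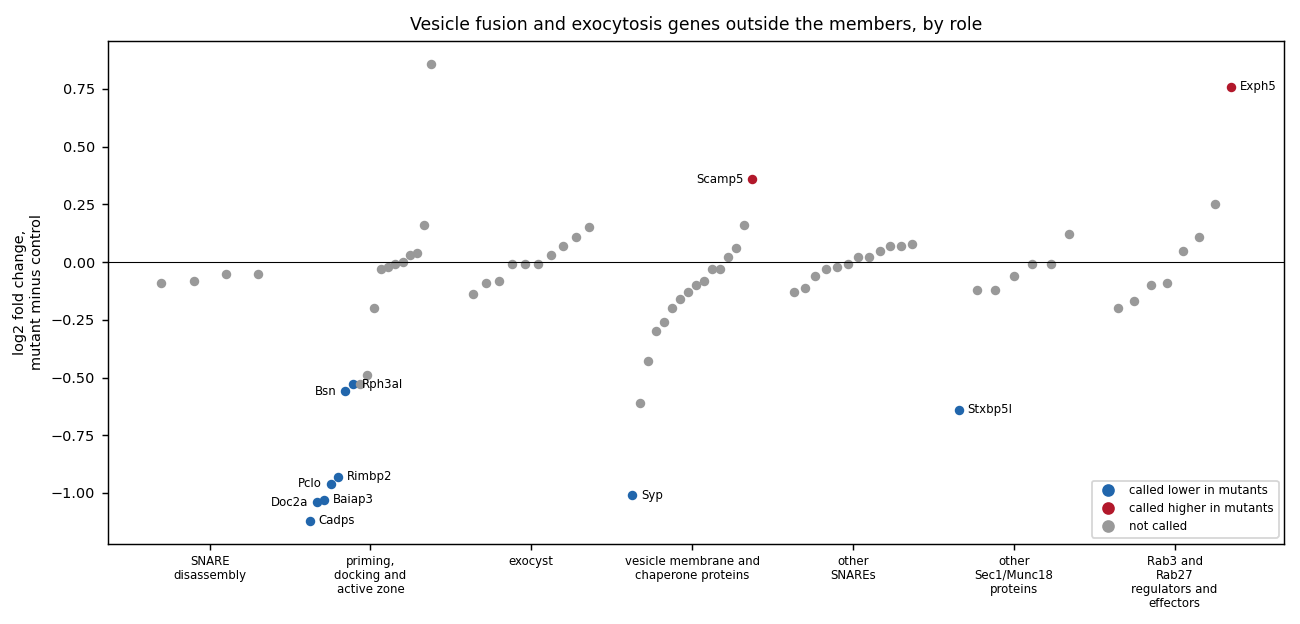
Log2 fold change, mutant minus control, of 75 tested vesicle fusion and exocytosis genes outside the members, arranged by role and, within a role, by size. Blue marks genes called lower in mutants, red genes called higher and grey genes not called; 7 of the 9 blue points lie in the column of priming, docking and active zone genes, down to -1.12 for Cadps.

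Markers of the cell types that use this machinery moved in the same pools. For the counts that follow, 4.28% of all tested genes were called lower in mutants and 3.67% higher. Of 28 tested endocrine markers, 20 were lower in mutants and none was called higher by edgeR, DESeq2 or limma voom (0 at an unadjusted p under 0.05); their summed level was 1743 to 1860.2 CPM in mutant pools and 2515.3 to 3243.1 CPM in control pools. Pcsk2, a prohormone convertase, had a log2 fold change of -1.02, and glucagon, Gcg, one of -0.72. Of 17 neuron markers, 7 were lower and none was called higher by the same 3 tools (0 at an unadjusted p under 0.05), with sums of 437.3 to 524.8 CPM in mutant pools and 538.9 to 728.1 CPM in control pools. Every marker in these 2 lists had reads in all pools. Of 21 tested acinar markers, 8 were higher and 2 lower, with sums of 4862.5 to 6490.4 CPM in mutant pools and 2764.4 to 6333.7 CPM in control pools, which overlap; the lower calls numbered 0 to 4 when single pools were left out. Pnlip, Rnase1 and Cuzd1 had 0 reads in at least 1 pool. Of the acinar markers, 14 of 21 had a positive log2 fold change. The calls with the smallest adjusted p were higher in mutants: the zymogen granule membrane protein Gp2 (log2 fold change 5.7), the chymotrypsin-like protease Ctrl (5.89) and the carboxypeptidase Cpb1 (3.12). The lower calls were the acinar transcription factor Bhlha15 (-0.8) and the elastase Cela3b (-1.29). Of 7 Schwann and neural crest markers 1 was lower, and of 5 mesenchyme markers 2 were higher. The part of these markers in the changes of the exocytosis genes was not tested.

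**Figure D5:**
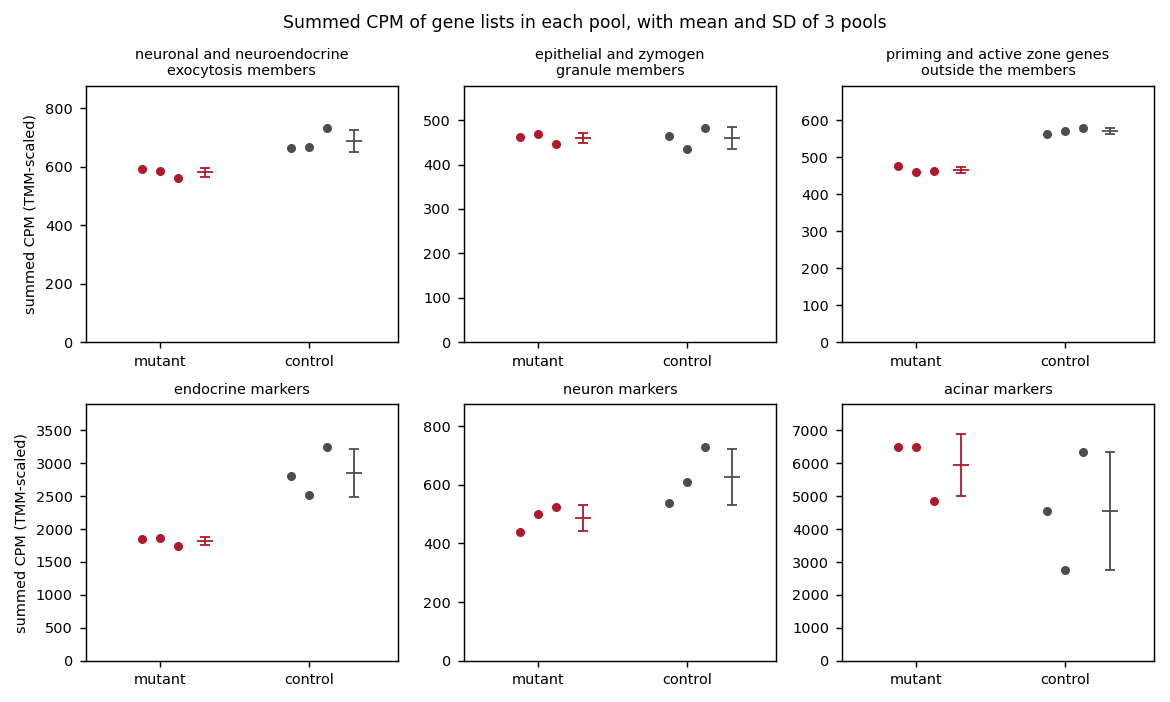
Summed level in CPM, on axes from 0, of 3 groups of exocytosis genes (top) and 3 lists of cell type markers (bottom) in the 3 mutant pools (left) and the 3 control pools (right), with the mean and SD of 3 pools. The neuronal and neuroendocrine members, the priming and active zone genes, the endocrine markers and the neuron markers are lower in all mutant pools than in any control pool, whereas the epithelial members and the acinar markers overlap.

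Across the libraries, total counts lay between 16060424 and 17633867 reads, at which 1 CPM stands for 15.9 to 17.5 reads. Prox1 itself was not called (log2 fold change -0.17, SE 0.074, edgeR adjusted p 0.235), so whole-gene counts did not separate the groups; which exons the reads cover was not analysed here. Xist, the RNA of the inactive X chromosome, had 2 reads in mutant pool 1 and 9 reads in control pool 3, and 33297 to 47135 reads in the other pools. Without these 2 pools, 5 members were called lower (Cplx2, Rab3d, Syt7, Syt13, Syt17) and 1 higher (Sytl2).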

How the data were processed

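The deposited files hold whole-number read counts per gene symbol, 1 library per pool, not normalized by the authors. Per the submitters' processing notes, cutadapt 1.13, STAR, HTSeq 0.6.1p1, DESeq2 and build mm10 were used; STAR's version, the annotation, the strand setting and the handling of multi-mapping reads were not given in the sources used here. The labels' protocol names Trizol and the design text a column kit for the RNA. No paralogue or antisense correction was made.

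The test of mutant against control pools used edgeR 4.0.16 (R 4.3.3): filterByExpr (minimum count 10), TMM scaling, a quasi-likelihood F test with genotype as the only term, and Benjamini-Hochberg adjustment over all 14687 tested genes, with calls at an adjusted p under 0.05. Standard errors are the size of the log2 fold change over the root of F, with normal 95% intervals. These intervals are approximate and can be narrower than the F test implies. That of Snap23, 0.02 to 0.23, leaves out 0 at an unadjusted edgeR p of 0.0522. CPM is the count scaled by library size and TMM factor; RPKM divides it by the union exon length of GENCODE M21 on GRCm38, which also gave positions for 74 of the 75 members. Vamp7 had no match. Exons of 17 members overlap another gene, in 4 by more than 10% of their bases (Stx18, Syt12, Syt4, Snap47), and without a known strand setting those reads cannot be told apart. Promoters came from the RefSeq table for GRCm38.p6. The test was tried on simulated data first.

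Alternatives were DESeq2 1.42.0, limma voom 3.58.1, other scalings and filters, robust estimation, a replicate block, and leaving out pools. Depth limits a level of 3 counts to 0.172 to 0.189 CPM. The members, lists and alternatives were chosen with earlier results of these data known. Named genes were Prox1, all called members, non-overlapping members with a log2 fold change of at least 1 in size, the extremes of each role, a fixed set, untested members, and up to 3 called genes of each further list; others were named after their values were seen. A few genes that the rule names are not reported here.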

Additional observations from a re-analysis of the deposited data

How the results depend on the processing

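Under the 16 alternatives no called member or called exocytosis gene changed sign. The 5 members called higher became 3 with total-count scaling, 2 with DESeq2, 2 with the replicate block, 1 without both pools almost free of Xist, and 1 to 6 when single pools were left out. The 12 called lower became 5 without those 2 pools and 6 to 11 when single pools were left out. Over all genes, 539 higher calls became 315 without the 2 pools and 282 to 696 with single pools left out; 628 lower calls became 350 and 343 to 725. Of the other exocytosis genes, 9 lower calls became 5 without the 2 pools and 5 to 12 with single pools left out, and 2 higher calls became 1 to 2. These fits have fewer samples. Marker calls ranged over 16 to 21 higher and 22 to 34 lower, against 19 and 30, and the members' median over -0.09 to -0.04, with single pools left out. Cplx1 could not be tested with at least 1 CPM in 3 libraries. Without control pool 2, Unc13c was called higher (adjusted p 0.0359).

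The replicate numbers share no stated litter or day, and deviations of equal numbers correlated at 0.138, 0.101 and -0.0497, with mutant pool 3 closest to control pool 2 (0.159). With the replicate block, 11 members were called, without Rims1, Rims4, Stx2, Stxbp2, Syt2 and Unc13a.

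Signs that turned belonged to uncalled genes, most of them near 0; Sytl4, at -0.3 with all pools, turned without control pool 3. With single pools left out, log2 fold changes covered -0.45 to 0.01 for Sytl4, -0.13 to 0.03 for Vamp2, -0.03 to 0.1 for Vamp3, -0.06 to 0.2 for Vamp5, and reached 0.05 for Stx1a, 0.02 for Vamp8 and -0.01 for Sv2a. Without both pools almost free of Xist, Stx1a stood at 0.06, Vamp5 at -0.06 and Vamp8 at 0.03, and with total-count scaling Sv2a stood at 0. The cause was not tested. At this depth, genes under 1 CPM rest on fewer than 17.5 reads per pool.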

Other observations

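Some exocytosis genes known from blood cells were examined beside markers of those cells. Their log2 fold changes did not all have the same sign, and among those that follow only Stxbp2 was called. That call ended when any single mutant pool was left out. Stxbp2, named above for epithelial and blood cells, was called lower in mutants (log2 fold change -0.22, edgeR adjusted p 0.0369). Rab27a, named above for dense granules, had a log2 fold change of -0.26 and its relative Rab27b one of 0.41, and neither was called. Unc13d, which primes lytic granules of lymphocytes, had 2.52, 2.3 and 2.35 CPM in mutant pools, against 1.73, 1.34 and 1.4 CPM in control pools. The groups did not overlap, but the log2 fold change of 0.67 (SE 0.21) had an edgeR adjusted p of 0.0891. Stx11, the syntaxin of the same granules, had 3.08, 4.12 and 3.43 CPM in mutant pools, against 3.46, 2.86 and 1.99 CPM in control pools, which overlapped (log2 fold change 0.36, SE 0.23, adjusted p 0.452). Of 9 leukocyte and mast cell markers 4 were higher in mutants (Mpo, Elane, Prtn3 and Ctsg). The others were not called, with log2 fold changes of 0.72 for Lyz2, 0.64 for Ptprc, 0.09 for Csf1r, -0.02 for Cd68 and -0.38 for Cpa3. The 9 summed to 140 to 199.1 CPM in mutant pools and 97.8 to 139 CPM in control pools. Ctsg had 0 reads in control pools 1 and 3. The neutrophil granule enzyme Mpo alone had 43.5, 21.9 and 17.8 CPM in mutant pools, against 2.15, 2.25 and 2.45 CPM in control pools. Of 7 erythroid and megakaryocyte markers 5 were higher, where 3.67% of all tested genes were. Their sums were 53.6 to 93.6 CPM in mutant pools and 27.2 to 30.9 CPM in control pools. The part of these markers in the levels of Unc13d and Stx11 was not tested.

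Unc13c, a Munc13 isoform of the cerebellum, had 3.27, 3.83 and 3.49 CPM in mutant pools, against 2.03, 2.92 and 1.69 CPM in control pools (log2 fold change 0.67, SE 0.23, edgeR adjusted p 0.121). It did not overlap between the groups, nor did Syt3, with 1.26, 2.12 and 1.37 CPM in mutant pools against 2.21, 3.29 and 2.45 CPM in control pools (log2 fold change -0.74, SE 0.27, edgeR adjusted p 0.148).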
